A study of Homo sapiens with 9 samples.

Results

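The E2F transcription factors E2F1, E2F2, E2F3, E2F4, E2F7 and E2F8, their DNA-binding partners TFDP1 and TFDP2, and the cell cycle transcription factors MYBL2 and FOXM1 were followed across 3 doses of ARN22089 in the human melanoma cell line WM3248. These 10 genes come from the 16395 genes that could be named in at least 1 library. They and the gene lists below were chosen by name with earlier results of these data known. Counts of them set beside all genes are therefore a description. All 10 belonged to the 12862 genes that averaged 1 FPKM or more and were tested. WM3248 is a single established line, so every library has the same genetic background. Cells received 0 µM (DMSO, the solvent), 4 µM or 6 µM ARN22089 and were lysed after 24 h, with 3 poly(A) RNA libraries per dose and 9 in all. ARN22089 is a small molecule that blocks the binding of CDC42-family GTPases to their effectors. The comparisons ask how the messenger RNA of each gene differed between doses. Whether replicate libraries stand for separate cultures is not said in the labels, so the p-values here reflect library-to-library spread alone, and that spread may be technical.

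E2F proteins bind promoters of genes for DNA replication and cell cycle entry. E2F1, E2F2 and E2F3 are the activator E2Fs, held inactive by the retinoblastoma protein RB1 until cyclin-dependent kinases phosphorylate it. E2F4 acts mainly as a repressor in quiescent cells together with the RB1 relatives RBL1 and RBL2. E2F7 and E2F8 are atypical repressors that bind DNA without a DP partner. The other E2Fs studied bind as dimers with a DP protein, encoded by TFDP1 or TFDP2. MYBL2 (B-MYB) joins the MuvB complex and, with FOXM1, drives genes of G2 and mitosis, and MYBL2 is itself a classical E2F target. Several of these genes are thus both regulators and products of the same cell cycle programme.

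The libraries held 26506 to 30798 assembled transcripts and 12588 to 13520 named genes each. Levels are given in FPKM, which counts fragments after correction for transcript length and library size, and the number of reads is not given in the files. Depth relative to the median library, taken from the ratio of the deposited coverage to FPKM, was lowest for replicate 3 at 4 µM (0.80) and highest for replicate 1 at 6 µM (1.34). Replicate 3 at 0 µM stood apart, with FPKM over all transcripts adding up to 1061112 against 587999 to 689699 in the other 8 libraries. When FPKM were rescaled to a common total (TPM), the median gene was 0.31 higher at 4 µM and 0.24 higher at 6 µM than at 0 µM on the log2 scale. The median ratio of a library's genes to their geometric mean over the 9 libraries was 0.988 in replicate 3 at 0 µM. It was 0.966 to 1.02 over all libraries. TPM therefore lowers the typical gene of that library against the other 8. Scaled by the median ratio, the median gene differed by -0.003 at 4 µM and 0 at 6 µM. All 9 listed melanocyte and melanoma genes, among them SOX10 and MITF, were assembled. Their summed level was 408 to 1390 FPKM at 0 µM, 1250 to 2360 at 4 µM and 1390 to 2050 at 6 µM, with S100B, the most variable, between 97.0 and 1880. Its part in the results was not tested. The endothelial genes PECAM1, VWF and CDH5 and the leukocyte genes PTPRC and CD3E were at 0 in every library, and KRT1 and KRT5 of keratinocytes likewise. KRT10 was assembled in every library, and KRT14 reached 2.27 FPKM in replicate 1 at 0 µM. The 4 keratinocyte genes together read 29.6 to 30.1 FPKM at 0 µM, 31.4 to 37.4 at 4 µM and 28.9 to 38.8 at 6 µM. CD68 was listed at 142 FPKM in replicate 3 at 4 µM and at 0 in the other libraries. The sum of 4 fibroblast genes stayed between 9.61 and 31.2 FPKM.

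Promoter sequences are shown for the members whose level differed most between doses and for E2F3 and E2F4, which differed least among the E2Fs. RefSeq windows of 300 bases on GRCh38.p14, 250 before the start and 50 from it on, matched 8 of the 10 members by symbol, all but E2F8 and FOXM1. Below are the 150 bases just before each start, written 5′ to 3′ on the gene's strand. Capitals mark the E2F words TTTCCCGC, TTTCGCGC, TTTGGCGC and TTTGCCGC and the shorter word GCGGGA, each searched on both strands. GCGGGA is also part of the reverse complement of TTTCCCGC. E2F1 lies on chr20:33686386-33686535 (minus strand), E2F2 on chr1:23531234-23531383 (minus), TFDP1 on chr13:113584603-113584752 (plus), MYBL2 on chr20:43666964-43667113 (plus) and E2F4 on chr16:67192005-67192154 (plus). The upstream E2F3 start, which gives the E2F3a protein, has its window on chr6:20401729-20401878 and the downstream E2F3b start on chr6:20403464-20403613, both on the plus strand.
E2F1: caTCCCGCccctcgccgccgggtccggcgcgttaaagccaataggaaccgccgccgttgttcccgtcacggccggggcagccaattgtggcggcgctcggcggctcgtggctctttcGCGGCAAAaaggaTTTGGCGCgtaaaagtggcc
E2F2: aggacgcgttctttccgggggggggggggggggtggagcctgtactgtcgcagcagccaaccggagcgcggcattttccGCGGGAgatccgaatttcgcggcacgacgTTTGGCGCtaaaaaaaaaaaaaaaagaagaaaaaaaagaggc
TFDP1: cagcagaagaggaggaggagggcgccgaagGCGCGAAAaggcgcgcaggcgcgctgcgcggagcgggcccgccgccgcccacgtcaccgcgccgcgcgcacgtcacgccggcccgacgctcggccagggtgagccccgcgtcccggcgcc
MYBL2: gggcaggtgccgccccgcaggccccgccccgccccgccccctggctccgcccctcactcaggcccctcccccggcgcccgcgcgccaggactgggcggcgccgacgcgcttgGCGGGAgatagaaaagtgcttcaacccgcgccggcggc
E2F3a: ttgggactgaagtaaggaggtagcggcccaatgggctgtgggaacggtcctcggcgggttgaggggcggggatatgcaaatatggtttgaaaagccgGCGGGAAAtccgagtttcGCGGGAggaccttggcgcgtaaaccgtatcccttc
E2F3b: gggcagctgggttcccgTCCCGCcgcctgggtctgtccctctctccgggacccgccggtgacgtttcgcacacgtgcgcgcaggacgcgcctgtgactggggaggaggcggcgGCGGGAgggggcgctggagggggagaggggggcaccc
E2F4: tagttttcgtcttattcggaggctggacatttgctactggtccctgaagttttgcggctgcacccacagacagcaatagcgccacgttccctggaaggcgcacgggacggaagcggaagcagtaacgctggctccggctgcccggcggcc

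One or more of the 4 E2F words stood in the windows of 4 of the 8 members, E2F1, E2F2, E2F3 and TFDP1, and in 3.31% of all 35116 promoter windows. In E2F1, TTTGGCGC began 20 bases and TTTGCCGC 33 bases before the start, the latter on the opposite strand. E2F2 had TTTGGCGC 42 bases upstream, TFDP1 had TTTCGCGC 120 bases upstream on the opposite strand, and the E2F3a window had TTTCCCGC 53 bases upstream on the opposite strand. None of the 4 words was in the E2F3b, E2F4, E2F7, MYBL2 or TFDP2 windows. GCGGGA was in windows of 6 members, against 26.9% of all windows, and in MYBL2 it began 38 bases before the start. The word TTTGAA, the cell cycle homology element of mitotic genes, was in the E2F3a window and in the windows of both downstream TFDP2 starts, against 15.2% of all. CCAAT, the NF-Y word, occurred in E2F1, the E2F3a window, E2F7 and the upstream TFDP2 window, against 34.6% of all. A match describes letters in the window, not binding.

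At 6 µM, 9 of the 10 members had a lower mean log2 level than at 0 µM, and the median of their differences was -0.69. Over all genes tested, 53.0% were lower and the median was -0.03. The 3 libraries at 6 µM all lay below the 3 at 0 µM for E2F1, E2F2, E2F8, TFDP1, MYBL2 and FOXM1, which is 6 of 10 members, against 13.6% of all genes. By the exon values described next, E2F7 was also below in both, 7 members with the core value (18.2% of all genes), while E2F1 overlapped with the consensus value, which left 6 (18.6%). The 6 genes of the summed value had an unadjusted limma p under 0.05, against 9.31% of all genes for lower values. In TPM, E2F2 alone did, 1 of 10 members against 2.21% of all genes. None passed the adjusted threshold of 0.05 in limma, which called 41 genes (0.319%), 24 higher and 17 lower. Without replicate 3 at 0 µM, all 10 members were lower at 6 µM, the same 6 had an unadjusted p under 0.05, and none of the 32 genes called was a member. With a term for the replicate number the count was 4 genes and still included no member. With median ratio scaling it was 37 genes, again without a member. After rescaling to TPM it was 11 genes, 10 higher and 1 lower. In TPM, 7 of 10 members were lower, against 30.1% of all genes, and the others were E2F3 at 0.09, E2F4 at 0.20 and TFDP2 at 0.40. Of these, TFDP2 lay above the 0.24 by which TPM moved the median gene.

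Whether a member passed depended on how its transcripts were turned into a gene value. The main value adds the FPKM of all spliced transcripts of a gene, and a gene assembled as several partial transcripts in a library then counts several times. A second value averaged the assembled signal over the bases covered in every library that assembled the gene (the core exon value, added after the data had been seen). With it, E2F1, E2F2 and MYBL2 were lower at 6 µM at adjusted p of 0.0309, 0.0307 and 0.041 in limma, 3 of 10 members, against 2.33% of all genes. With the replicate number as a block in that fit, 5 members passed, E2F8 and TFDP1 besides (adjusted p 0.0359 and 0.034), against 3.08% of all genes. A value over the bases covered in at least 50% of those libraries (the consensus exon value) called none of the members, against 2.39% of all genes, and with the block E2F2, E2F8 and TFDP1 (adjusted p 0.0347, 0.0477 and 0.0489), against 2.93%. These calls, more than the differences, changed when single libraries were left out. With the core exon value and 1 library left out, the difference ran from -0.742 to -0.609 for E2F1 and from -1.347 to -1.151 for E2F2. For MYBL2 it ran from -1.434 to -0.999. Leaving out a 4 µM library changed the estimated spread and not these differences. Over all genes, the core exon value called 472 genes, and 18 to 519 with 1 library left out. With the core exon value, E2F1 and E2F2 each kept an adjusted p under 0.05 for 4 of the 9 libraries left out in turn, with highest values of 0.115, and MYBL2 for 2 of 9, with a highest value of 0.144. The lost calls were those without replicate 2 or 3 at 0 µM, replicate 2 at 4 µM or replicate 1 or 2 at 6 µM, and for MYBL2 also without replicate 1 at 0 µM or at 4 µM.

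**Figure D1:**
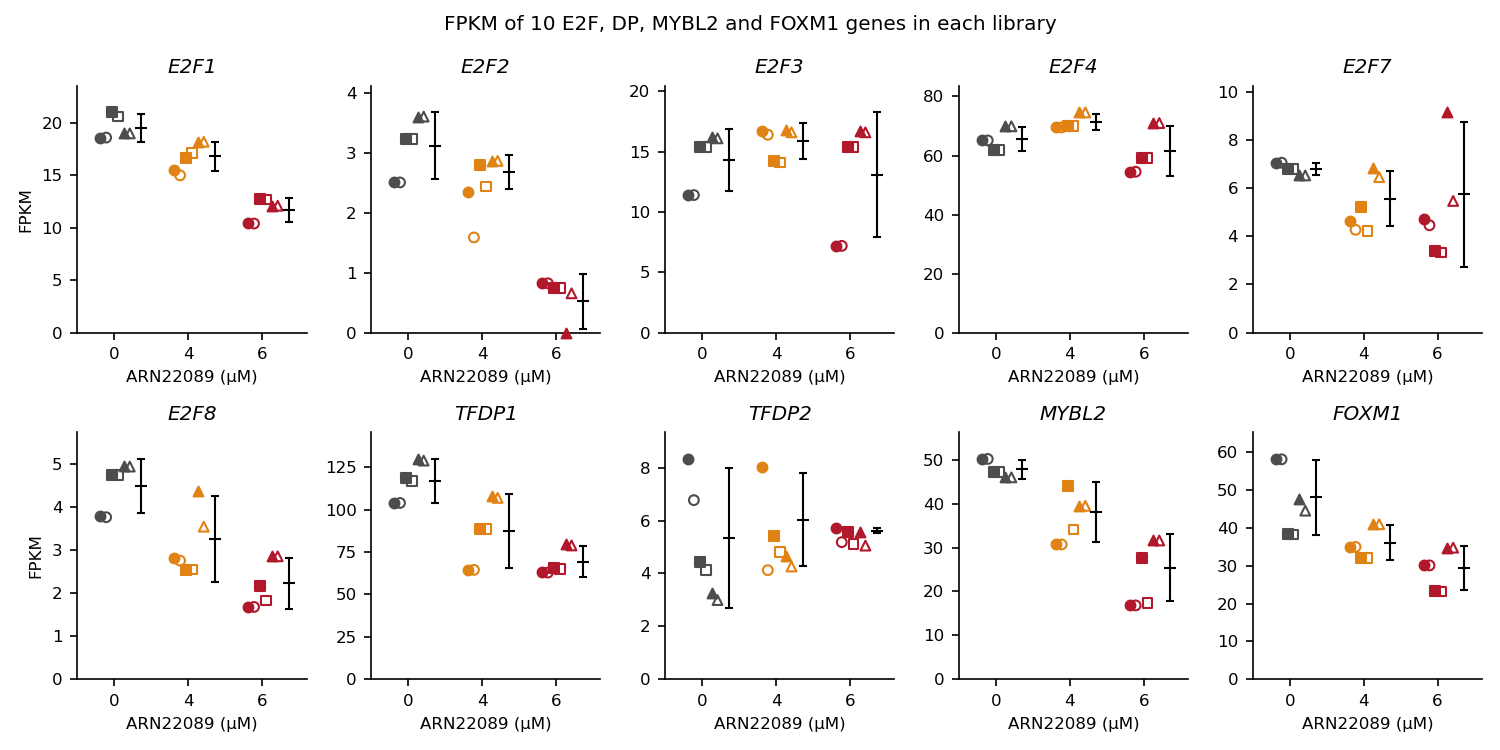
FPKM (y axis, linear from 0) of each gene against ARN22089 dose (x axis, µM). Filled symbols are the summed value and open symbols the core exon value, circle, square and triangle are replicates 1, 2 and 3, and the bar is the mean ± SD of the summed value (n = 3). For E2F1, E2F2, E2F8, TFDP1, MYBL2 and FOXM1 every filled symbol at 6 µM lies below every one at 0 µM.

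Among the activator E2Fs, E2F1 (chr20:33675477-33686385, minus strand) read 18.6, 21.0 and 19.0 FPKM in DMSO, 15.5, 16.7 and 18.2 with 4 µM and 10.5, 12.7 and 12.1 with 6 µM. The doses formed 3 groups that did not overlap, with the highest library at 6 µM below the lowest at 4 µM. With the consensus exon value replicate 1 in DMSO read 11.4, inside the 6 µM range of 10.1 to 11.7. The one E2F1 transcript of that library held all 6 annotated introns but was 1530 bases long, against 2207 consensus bases. The mean went from 19.5 ± 1.31 (SD, n = 3) at 0 µM to 11.7 ± 1.14 at 6 µM, 40.0% less. The log2 difference was -0.69 with a standard error of 0.13 (limma adjusted p = 0.0672), -0.69 by the core and -0.49 by the consensus exon value (the latter at an adjusted p of 0.173). E2F1 induces both S phase entry and, when unrestrained, apoptosis.

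E2F2 (chr1:23505212-23531233, minus strand), the least abundant member at every dose, read 2.51, 3.24 and 3.61 FPKM in DMSO, 2.35, 2.80 and 2.87 with 4 µM and 0.824, 0.743 and 0 with 6 µM. Its difference was -1.48 with a standard error of 0.30 (limma adjusted p = 0.0709), the largest of the 10 genes. With the core exon value, in which replicate 3 at 6 µM read 0.656, it was -1.24, and with the consensus exon value -1.07, next to -1.11 for MYBL2. For E2F2 the core exon value covers 929 bases and the consensus exon value 5152. The core exon call of E2F2 thus rests on a small part of the gene. Over 18 alternatives the E2F2 difference ran from -2.38 to -0.66. No spliced E2F2 transcript was assembled in replicate 3 at 6 µM. It held an unspliced transcript of 3650 bases at 2.09 FPKM in the last exon, chr1:23506432-23510081, from which its core exon value came. Replicate 2 at 6 µM held an unspliced transcript of 2505 bases at 2.22 FPKM. A chain with all 6 annotated introns was assembled in 3 libraries at 0 µM, 2 at 4 µM and 0 at 6 µM. The deposited coverage of E2F2 was 8.92 to 17.4 at 0 µM and 2.85 and 4.16 in the pair of 6 µM libraries with spliced transcripts, so its values at 6 µM rest on low coverage. The deposited 95% limits of those transcripts were 0.518 to 1.13 and 0.297 to 1.19 FPKM.

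E2F3 (chr6:20401879-20493714, plus strand) read 11.4, 15.4 and 16.2 FPKM in DMSO, 16.7, 14.2 and 16.8 with 4 µM and 7.19, 15.4 and 16.7 with 6 µM. All doses overlapped. The low library, replicate 1 at 6 µM, lacked the last exon in its spliced transcripts, while an unspliced transcript of 3707 bases at 17.9 FPKM covered it, and the consensus exon value there was 15.4. The log2 difference at 6 µM was -0.18 with a 95% interval of -0.85 to 0.48 and turned to 0.16 with the consensus exon value and 0.17 without that library. A change of either sign thus remained within the error.

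E2F4 (chr16:67192155-67198918, plus strand), the most abundant E2F here, read 65.1, 61.9 and 69.9 FPKM in DMSO, 69.5, 70.0 and 74.6 with 4 µM and 54.5, 59.2 and 71.0 with 6 µM. The ranges at 0 and 6 µM overlapped, and replicate 3 was the highest of its dose at each dose. The log2 difference at 6 µM was -0.10, with a 95% interval of -0.40 to 0.21 (limma adjusted p = 0.736). The difference fitted for E2F1 lies outside that interval, and whether the 2 genes differ in response was not tested.

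The atypical repressors E2F7 and E2F8 were among the less abundant members. E2F7 (chr12:77021251-77065569, minus strand) read 7.06, 6.80 and 6.55 FPKM in DMSO, 4.64, 5.24 and 6.82 with 4 µM and 4.71, 3.37 and 9.15 with 6 µM. The highest value, replicate 3 at 6 µM, was the sum of 2 fragments of 6.23 and 2.91 FPKM that covered different exons of the gene, and the core exon value there was 5.47. With that value, the 6 µM libraries at 4.46, 3.33 and 5.47 FPKM all lay below the 6.53 to 7.06 at 0 µM. Its summed value gave a log2 difference of -0.30 and its core exon value one of -0.54 (limma adjusted p = 0.631 and 0.132), so no change was called.

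E2F8 (chr11:19224063-19241655, minus strand) read 3.79, 4.75 and 4.97 FPKM in DMSO, 2.83, 2.55 and 4.39 with 4 µM and 1.68, 2.17 and 2.86 with 6 µM. The 6 µM libraries lay below all 0 µM libraries and overlapped those at 4 µM, as those of E2F7 did with the core exon value. The mean at 6 µM was 50.4% below that at 0 µM, with a log2 difference of -0.78 and a standard error of 0.24 (limma adjusted p = 0.163). E2F7 and E2F8 restrain E2F1 in a feedback loop.

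Of the DP partners, TFDP1 (chr13:113584688-113641473, plus strand) read 104, 119 and 130 FPKM in DMSO, 64.7, 88.8 and 108 with 4 µM and 63.1, 65.3 and 79.8 with 6 µM. It was the most abundant member at each dose, and the groups at 0 and 6 µM did not overlap. At 6 µM its mean was 69.4 ± 9.06 (SD, n = 3), 40.9% below that at 0 µM, with a log2 difference of -0.75 and a standard error of 0.20 (limma adjusted p = 0.122). TFDP2 (chr3:141944428-142149544, minus strand) read 8.33, 4.44 and 3.25 FPKM in DMSO, 8.03, 5.41 and 4.66 with 4 µM and 5.73, 5.57 and 5.55 with 6 µM. The 3 libraries at 6 µM were close together and inside the range at 0 µM. Its log2 difference was 0.14 with a 95% interval of -0.54 to 0.83, and -0.11 without replicate 3 at 0 µM. In replicate 1 at 4 µM, 3.76 FPKM of TFDP2 came from a 2-exon fragment of 364 bases, and the core exon value there was 4.12. The ratio of TFDP1 to TFDP2 was 12.5 to 39.9 at 0 µM, 8.06 to 23.3 at 4 µM and 11 to 14.4 at 6 µM, with overlapping ranges. With the core exon value it was 15.3 to 43.2, 15.7 to 25.1 and 12.1 to 15.6. The ratio was not tested.

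MYBL2 (chr20:43667114-43716482, plus strand) read 50.2, 47.2 and 46.0 FPKM in DMSO, 30.7, 44 and 39.5 with 4 µM and 16.8, 27.7 and 31.6 with 6 µM. All treated libraries lay below all libraries at 0 µM, and those at 4 and 6 µM overlapped only between 30.7 and 31.6. In replicate 2 at 4 and at 6 µM, 12 and 12.7 FPKM came from a separate fragment of the last 4 exons, and the core exon values there were 34.1 and 17.3. The log2 difference at 6 µM was -0.93 with a standard error of 0.24 (limma adjusted p = 0.109), and -1.15 with the core exon value. FOXM1 (chr12:2857680-2877174, minus strand) read 58.3, 38.4 and 47.7 FPKM in DMSO, 35.1, 32.1 and 41.1 with 4 µM and 30.1, 23.2 and 34.8 with 6 µM. The 0 µM libraries spread most, and those at 6 µM lay below all of them. The log2 difference was -0.69 with a standard error of 0.21 (limma adjusted p = 0.152). FOXM1 shares 782 exonic bases with ITFG2 on the other strand, and E2F8 shares 7 with CSRP3-AS1, so these values may hold reads of either gene.

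At 4 µM against 0 µM, 7 of the 10 members were lower, against 49.9% of all genes, with a median difference of -0.23 against 0 over all genes tested. E2F1 and MYBL2 were the 2 members whose 4 µM libraries all lay below the 0 µM libraries, against 8.16% of all genes. With the core exon value E2F7 and E2F8 joined them, and with the consensus exon value the 2 members were E2F7 and TFDP1, each against 10.6% of all genes. No member had an unadjusted p under 0.05, against 4.47% of all genes for lower values. With the replicate block 2 members did, FOXM1 and TFDP1, against 5.02% of all genes. The core exon value gave 2, E2F8 and TFDP1, against 7.2%, and with the block 4, E2F7 and FOXM1 besides, against 8.73%. None passed the adjusted threshold in limma, which called 10 genes (0.0777%), or 2 with the replicate block. TFDP1 had the largest difference, -0.45 with a 95% interval of -0.91 to 0.02. After rescaling to TPM, E2F1 read 0.13, E2F2 0.11, E2F7 0.04 and MYBL2 0.01, positive but below the shift of 0.31 of the median gene. Between 6 and 4 µM all 10 members were lower at 6 µM, against 54.7% of all genes. E2F1, E2F2 and MYBL2 had an unadjusted p under 0.05, against 2.99% of all genes for lower values. None passed the adjusted threshold in limma, which called 3 genes (0.0233%), or 1 with the block. E2F1 and E2F2 were the members with all 6 µM libraries below all 4 µM libraries. The share of all genes with that separation was not computed, so this count has no baseline. The comparisons share the libraries of each dose and are not independent of each other.

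**Figure D2:**
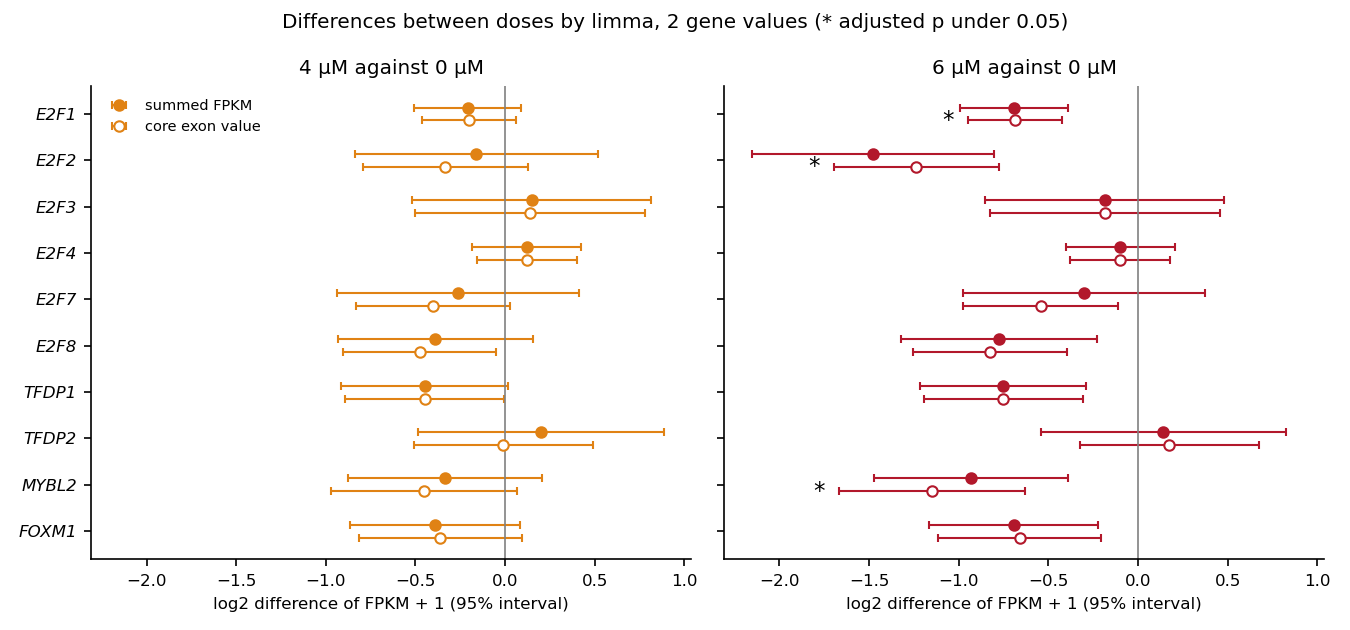
Log2 difference of FPKM + 1 (x axis) with its 95% interval from limma for each gene (y axis), at 4 µM and at 6 µM against 0 µM. Filled points are the summed value, open points the core exon value, and asterisks mark adjusted p under 0.05, reached at 6 µM by E2F1, E2F2 and MYBL2 with the core exon value.

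The assembled structures differed between libraries, and a difference with dose was not tested. E2F4, MYBL2 and FOXM1 had a chain with every annotated intron in all 9 libraries. E2F1 had one in 3, 3 and 1 libraries at 0, 4 and 6 µM, E2F7 in 3, 3 and 1, E2F8 in 3, 1 and 2, TFDP1 in 2, 2 and 2, TFDP2 in 1, 1 and 2, and E2F3 in 0, 1 and 1. Deposited coverage over the same libraries was 2.85 to 17.4 for E2F2 where it was spliced, 8.14 to 24.1 for E2F8 and 245 to 635 for TFDP1. The part of coverage in these counts was not tested.

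**Figure D3:**
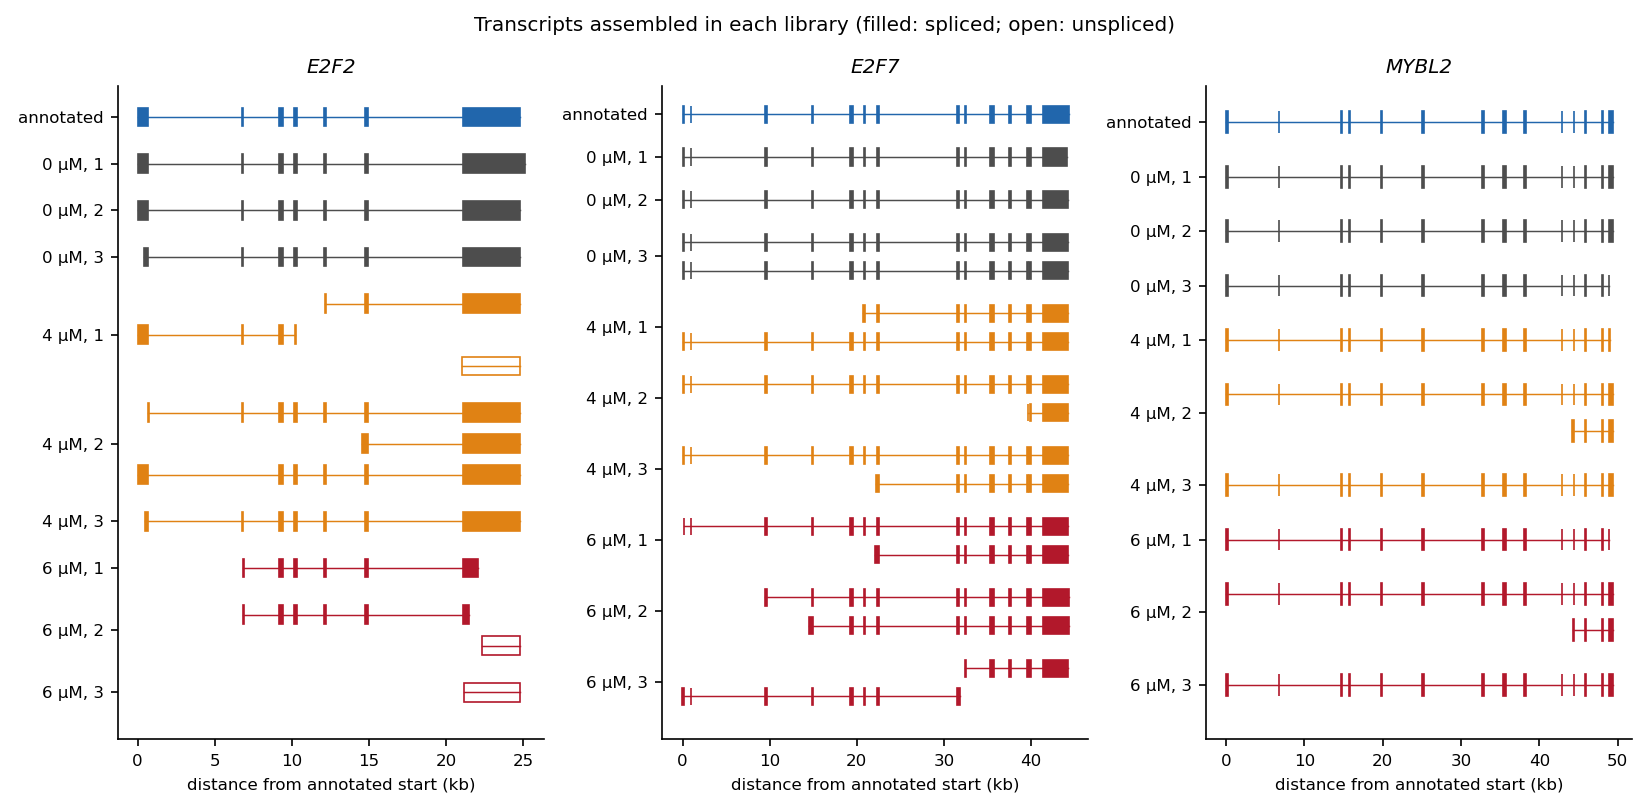
Exons (boxes) and introns (lines) of E2F2, E2F7 and MYBL2 by distance from the annotated start (x axis, kb), with the annotated transcript on top and the transcripts of each library below by dose and replicate. Open boxes are unspliced transcripts outside the summed value. E2F2 is complete at 0 µM and partial or unspliced at 6 µM, and MYBL2 has a short last fragment in replicate 2 at 4 and 6 µM.

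Each of the 9 libraries held E2F1 transcripts with the annotated first exon. In replicate 2 at 0 µM and replicate 1 at 4 µM, 65.0% and 82.3% of its FPKM came from transcripts with another first exon at chr20:33687515-33687567, which is not in the annotation and lies 1130 bases upstream of the annotated start. E2F3 transcripts used the E2F3a first exon (chr6:20401879-20402625) in 6 libraries, at 11.6% to 80.3% of its FPKM, and the E2F3b first exon (chr6:20403679-20403832) in 8, at 19.7% to 100%. Replicate 2 at 6 µM was the one library with most of its FPKM on E2F3a, and replicate 1 at 0 µM had neither first exon in a spliced transcript. The E2F3 first exons were told apart by where they ended. At 6 µM the E2F3a transcripts began at chr6:20402608 in replicate 2 and at chr6:20402625 in replicate 1, so they held only the end of that exon. TFDP2 transcripts began near both the upstream RefSeq start and the downstream pair of starts in every library, with 18.5% to 55.4% and 44.6% to 81.5% of FPKM. FOXM1 transcripts whose only optional exon was an annotated 45-base exon (chr12:2865355-2865399) made up 72.6% to 100% of FPKM. Forms without an optional exon were assembled in 4 libraries, at 14% to 20.5%, and one with both the 45-base and a 114-base exon (chr12:2861299-2861412) in replicate 1 at 0 µM, at 13.4%. At 6 µM all 3 libraries had the 45-base form alone. Whether the shares differed with dose was not tested.

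**Figure D4:**
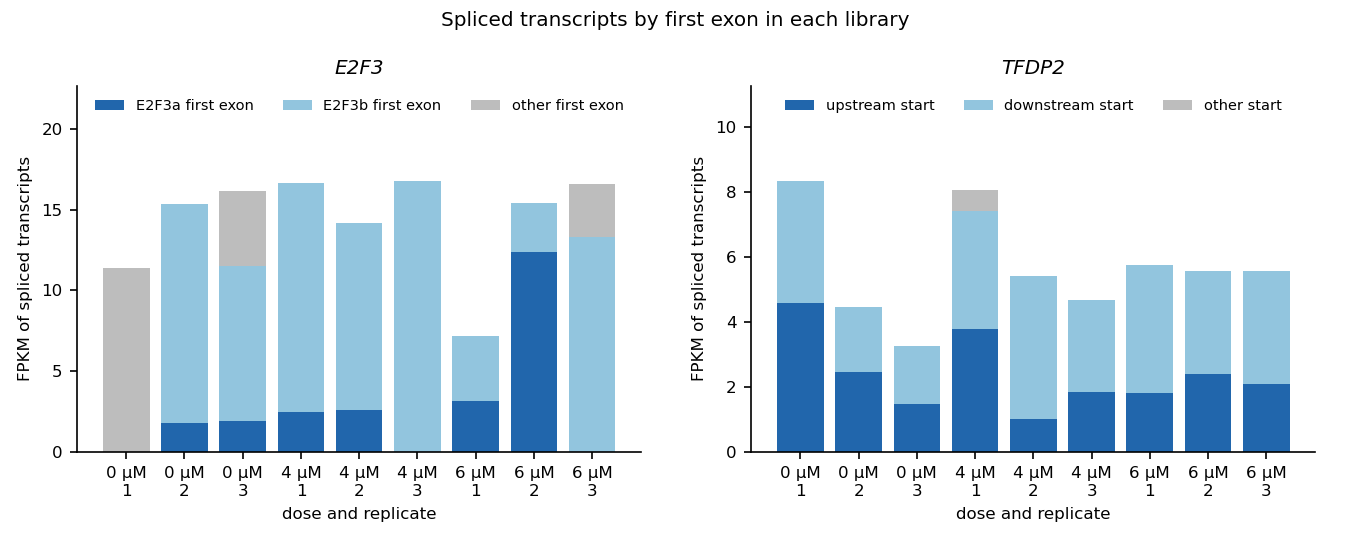
FPKM of spliced transcripts (y axis, from 0) of E2F3 and TFDP2 in each library (x axis, dose and replicate), stacked by first exon. E2F3b predominates in most libraries and E2F3a in replicate 2 at 6 µM, where the transcripts hold only the end of the E2F3a first exon. Both TFDP2 starts appear in every library.

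FPKM is per length, so levels can be compared between the genes. At 0 µM the order was TFDP1, E2F4, FOXM1, MYBL2, E2F1, E2F3, E2F7, TFDP2, E2F8 and E2F2, from a mean of 117 to 3.12 FPKM. FOXM1 and MYBL2 overlapped in range, as did E2F7 with TFDP2 and TFDP2 with E2F8, and the other neighbours were apart. At 4 µM the neighbours TFDP1 and E2F4, MYBL2 and FOXM1, E2F1 and E2F3, TFDP2 and E2F7, and E2F8 and E2F2 overlapped. At 6 µM TFDP1 and E2F4, FOXM1 and MYBL2, and E2F7 and TFDP2 overlapped, E2F3 stood above E2F1 with overlapping ranges, and E2F2 stayed last at 0.522. The 6 E2F genes together read 108 to 120 FPKM at 0 µM, 111 to 124 at 4 µM and 79.4 to 112 at 6 µM. E2F4 made up 54.7% to 60.0% of that sum at 0 µM, 60.3% to 62.8% at 4 µM and 63.2% to 68.7% at 6 µM. These ranges did not overlap, while with the core exon value the 4 and 6 µM ranges met at 63.5%. No test of the share was made. The activators E2F1 to E2F3 made up 30.0% to 35.1% at 0 µM and 23.3% to 30.8% at 6 µM.

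Genes that the E2Fs regulate were lower together at 6 µM. Of 30 E2F targets of G1 and S phase, 30 had a negative difference, against 53.0% of all genes, with a median of -1.01 against -0.03. All 30 were also negative after rescaling to TPM, against 30.1% of all genes. At unadjusted p under 0.05, 25 of them were lower, against 9.31% of all genes, and 13 after rescaling to TPM, against 2.21%. None passed the adjusted threshold in limma with the summed value, while 17 did with the core exon value, against 2.33% of all genes. MCM5, a subunit of the replicative helicase, averaged 42.8 ± 1.34 FPKM (SD, n = 3) at 0 µM and 17.9 ± 5.28 at 6 µM, a difference of -1.25 (limma adjusted p = 0.0544). CCNA2, the S phase cyclin A2, averaged 39.9 ± 3.05 and 12.7 ± 3.81 FPKM, a difference of -1.61 (limma adjusted p = 0.0582). CDC6, the replication licensing factor, and RRM1, a subunit of ribonucleotide reductase, had differences of -1.29 and -1.21. POLA2 of the DNA polymerase alpha complex had -1.01 and MCM10, a replication initiation factor, -1.31. At 4 µM, 28 of the 30 were negative, against 49.9% of all genes, and 11 at unadjusted p under 0.05, against 4.47%, with a median of -0.38. After rescaling to TPM 17 of 30 were negative, against 22.3% of all genes, with a median of -0.04 against 0.31 over all genes. At unadjusted p under 0.05, 1 was lower in TPM, against 0.777% of all genes.

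Of 30 B-MYB and FOXM1 targets of G2 and mitosis, 29 had a negative difference at 6 µM, against 53.0% of all genes, with a median of -1.0. After rescaling to TPM 28 were negative, against 30.1% of all genes. In this list 27 were lower at unadjusted p under 0.05, against 9.31% of all genes, and AURKB passed the adjusted threshold in limma. With the core exon value 20 passed, against 2.33% of all genes. In TPM, 16 were lower at unadjusted p under 0.05, against 2.21%, and none passed. AURKB (chr17:8204731-8210575), the kinase of the chromosomal passenger complex, read 74.7, 78.9 and 60.4 FPKM in DMSO, 43.3, 44 and 47.5 with 4 µM and 30.7, 28.6 and 40.4 with 6 µM. It fell by 1.09 on the log2 scale at 6 µM (limma adjusted p = 0.0498, and 0.0793 with the replicate block). This call held in 5 of 19 alternatives, whose adjusted p ran from 0.0284 to 0.272, and without one library in turn it held only without replicate 3 at 6 µM (0.0324), against 0.0611 to 0.181 without any other. KIF20A, a mitotic kinesin, averaged 36.1 ± 3.02 FPKM (SD, n = 3) at 0 µM and 18.0 ± 2.80 at 6 µM. TOP2A, which untangles DNA, had a difference of -1.24, the mitotic kinase PLK1 -1.10, the anaphase activator CDC20 -1.41 and cyclin F (CCNF) -1.03. CKS2 was the one gene with a positive difference, 0.06. At 4 µM, 28 of the 30 were negative, against 49.9% of all genes, and 15 at unadjusted p under 0.05, against 4.47%, with a median of -0.56. After rescaling to TPM 24 were negative, against 22.3% of all genes, with a median of -0.21 against 0.31. In TPM, 1 gene was lower at unadjusted p under 0.05, against 0.777% of all genes, and 1 higher, against 13.2%.

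**Figure D5:**
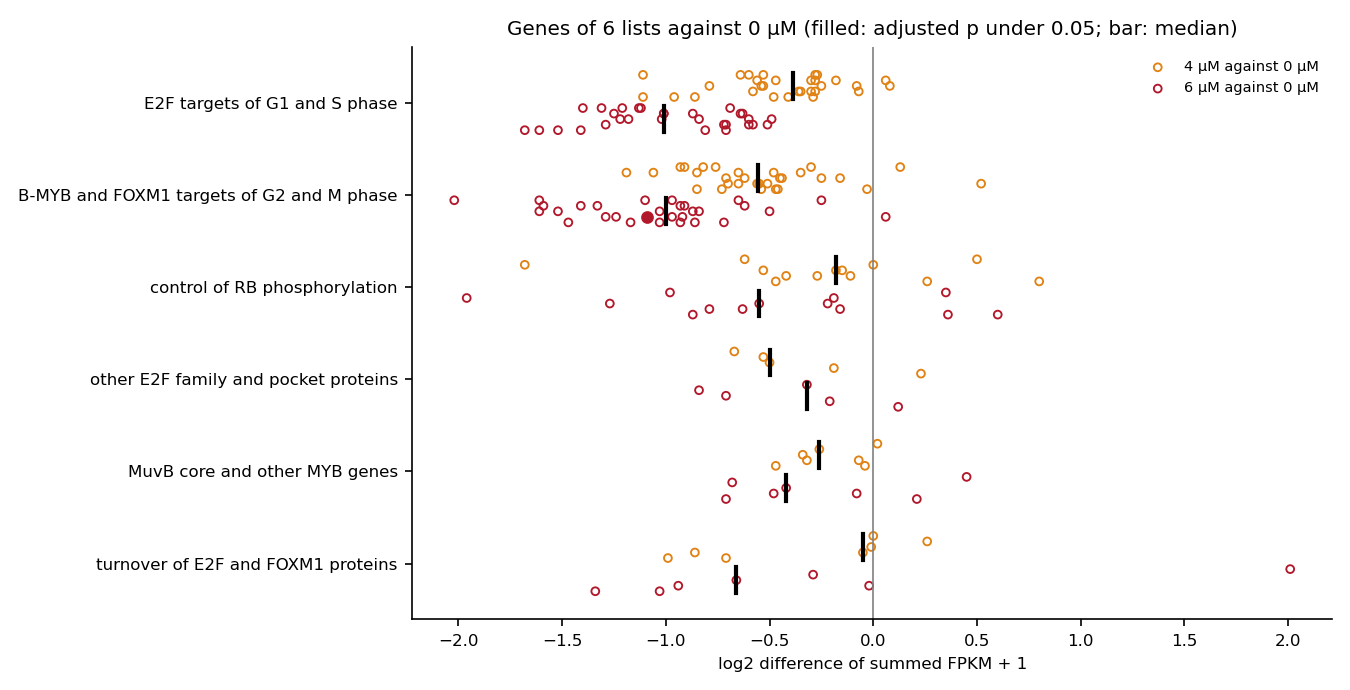
Log2 difference of summed FPKM + 1 (x axis) of each gene of 6 lists (y axis) at 4 µM and at 6 µM against 0 µM. The filled point is AURKB, the one gene past adjusted p 0.05, and bars are medians, which lie near -1 at 6 µM for both target lists.

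The regulators upstream of E2F gave a mixed picture. Of 13 genes tested that control RB1 phosphorylation, 10 were negative at 6 µM, against 53.0% of all genes, and 6 lower at unadjusted p under 0.05, against 9.31%. None passed the adjusted threshold with the summed value, and 3 did with the core exon value, against 2.33% of all genes. In TPM, 7 were negative, against 30.1% of all genes, and 3 of them at unadjusted p under 0.05, against 2.21%. At that p, 1 was higher, against 12.6%. CCND1, cyclin D1, read 64.9, 82.3 and 86.8 FPKM in DMSO, 48.5, 54.8 and 64.2 with 4 µM and 33.0, 43.5 and 51.2 with 6 µM. Every treated library was below every library at 0 µM, and the difference at 6 µM was -0.87 (limma adjusted p = 0.0891). CCNE2, cyclin E2 and an E2F target, averaged 28.7 ± 13.0 FPKM (SD, n = 3) at 0 µM and 7.12 ± 5.78 at 6 µM. CDC25A, a phosphatase that activates CDK2, had a difference of -0.98 and cyclin D3 (CCND3) -0.63. CCND2, CDKN2A and CDKN2B were not tested because of their low values. The 3 genes with a positive difference were CDK2, the kinase partner of cyclins E and A, at 0.36, and the CDK inhibitor genes CDKN1B (p27) at 0.35 and CDKN1C (p57) at 0.60, none past the adjusted threshold. The other CDK inhibitor genes tested, CDKN1A (p21), CDKN2C and CDKN2D, had negative differences, so the inhibitors went both ways. CDKN1B was also positive at 4 µM, at 0.50, with an unadjusted limma p under 0.05.

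Among the other E2F and pocket protein genes, RBL1, which encodes p107 and is an E2F target, read 6.21, 6.31 and 6.03 FPKM in DMSO, 3.20, 4.13 and 4.73 with 4 µM and 2.59, 3.06 and 3.44 with 6 µM. The 0 µM group stood apart from both treated groups, and the difference at 6 µM was -0.84 (limma adjusted p = 0.0755 with the summed and 0.0309 with the core exon value). RB1 differed by -0.71 (-0.38 with the core exon value), RBL2, which encodes p130, by -0.32 (within 0.01 of 0 with the core exon value and 0.04 without replicate 3 at 6 µM) and E2F6 by -0.21 (0.06 after rescaling to TPM), and E2F5 was positive at 0.12. TFDP3 was not tested. Of the 7 genes of the MuvB core and other MYB genes, 5 were negative, against 53.0% of all genes. At unadjusted p under 0.05, 3 were lower, against 9.31%, LIN9 at -0.68, RBBP4 at -0.48 and MYBL1 at -0.71. In TPM, 4 were negative, against 30.1% of all genes, and none was lower at unadjusted p under 0.05. LIN54 had -0.42. None passed the adjusted threshold with either value. Of 7 genes for the turnover of E2F and FOXM1 proteins, 6 were negative with the summed value, against 53.0% of all genes, and none passed. With the core exon value 5 were negative, against 55.4%, and SKP2 and CCNF passed, against 2.33% of all genes. In TPM, 5 were negative, against 30.1%. SKP2, the F-box protein that recognises p27, averaged 19.6 ± 6.78 FPKM at 0 µM and 7.06 ± 2.30 at 6 µM (SD, n = 3). CDC27 had a difference of -0.94 and CUL1 of -0.66, and with the core exon value -0.54 and -0.34.

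Over the 9 libraries, the genes whose log2 level most resembled a member's were ranked among 8636 genes assembled in all libraries with a mean of at least 5 FPKM. The points share the 3 doses and their libraries, so the coefficients are a description. For E2F1 the closest 5 were CNIH2 (Pearson r 0.971), F2R (0.968), DFFA (0.968), ALDH1B1 (0.956) and PSMD11 (0.947). MYBL2 had rank 36 for E2F1, at 0.911, and TFDP1 rank 141, at 0.852, while TFDP2 had an r of -0.251. For MYBL2 the closest were TMEM106C (0.969), the centromere protein gene CENPW (0.967), HYAL2 (0.962), ALDH1B1 (0.955) and TNFRSF12A (0.953). For FOXM1 they were the MuvB subunit gene RBBP4 (0.984), WBP11 (0.983), the cytokinesis gene CEP55 (0.983), NIP7 (0.982) and CCND3 (0.982), and E2F3 was at 0.054.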

How the data were processed

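RNA of WM3248 cells was sequenced after poly(A) enrichment in 9 libraries, 3 per dose. Per the submitters' processing notes, reads were trimmed with Trimmomatic, aligned with TopHat2 2.1 and Bowtie2 2.2.7 and assembled with Cufflinks 2.2.1, with SAMtools 1.9 and R 4.0.3. Each deposited file lists the transcripts the authors assembled in one library, with exons, FPKM, its limits and coverage. The notes name GRCh37, but 90.84% of the 162878 assembled introns match GENCODE introns in GRCh38 and 0.666% those in GRCh37, so all coordinates here are GRCh38. Low FPKM can be failed assembly, and the assemblies were not merged across libraries.

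Spliced transcripts were named by exact introns from the GENCODE v44 annotation (188566 of 193769, 97.3%). Unspliced transcripts were named only for genes never assembled with introns, where at least 50% lay in 1 gene. A gene's value is the sum of its transcripts' FPKM. limma 3.58.1 in R 4.3.3 was fitted across all 12862 genes averaging 1 FPKM or more, on log2(FPKM + 1) with a trend prior over all 9 libraries (6 residual degrees of freedom) and Benjamini-Hochberg adjustment. Fold changes on this scale understate the change of low genes. The design table assumed gene values, which had to be built from transcripts. The fit was tested on simulated data with independent noise, where changes were put only into genes of higher level and small spread. That test therefore does not cover low genes such as E2F2, failed assembly or pairing.

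The descriptions give libraries of one replicate number a common tag that reads like a calendar day, at every dose. The numbers were therefore taken to pair the libraries in the fits with the replicate block. The main fit has no such term, so its p-values ignore any pairing. Deviations from the dose means correlated at -0.019 to 0.116 over 9 same-numbered pairs of libraries and at -0.084 to 0.022 over 18 others. The members, lists and markers were chosen with earlier results of these data known. All 10 members are named, and of each list the genes past the threshold and then those with the smallest p at 6 µM, up to 4 (6 for the target lists). CKS2, E2F5, CDK2, CDKN1A, CDKN1B, CDKN1C, CDKN2C and CDKN2D were named after their values were seen. Alternatives were TPM and median ratio scaling, pseudocounts of 0.25 and 4, no filter or 5 FPKM, the consensus and core exon values, the replicate block, only the 2 doses compared, and each library left out. Figures were drawn with Python 3.11.15.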

Additional observations from a re-analysis of the deposited data

How the results depend on the processing

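At 4 µM against 0 µM, 10 genes were called over all genes tested. The count was 5 with a pseudocount of 4, 2 with the replicate block, and 5 to 31 when 1 library was left out. At 6 µM against 0 µM it was 41, and 11 with TPM, 19 with a pseudocount of 4, 26 without a filter, 69 with a minimum of 5 FPKM, 498 and 472 with the consensus and core exon values, 4 with the replicate block, 17 with only the 2 doses compared, and 17 to 75 with 1 library left out. Of the 41 genes, 29 and 30 were among those called with the consensus and core values. At 6 µM against 4 µM it was 3, and 8 without a filter, 6 with either exon value, 1 with the replicate block, 5 with only the 2 doses compared and 2 to 14 with 1 library left out. The replicate block ended no call of a member with the summed value, since there was none. E2F2 and E2F8 fell under the minimum of 5 FPKM and have no value there.

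The following log2 differences had the other sign, and the cause was not tested. At 4 µM against 0 µM they were 0.126 (TPM) and 0.062 (consensus exon value) for E2F1, 0.111 for E2F2, 0.039 for E2F7 and 0.009 for MYBL2 (all TPM), and -0.009 (core exon value) and -0.047 (without replicate 3 at 0 µM, lowest; highest 0.52 without replicate 1 at 0 µM) for TFDP2. At 6 µM against 0 µM they were 0.094 (TPM), 0.16 (consensus exon value) and 0.168 (without replicate 1 at 6 µM; lowest -0.387) for E2F3, 0.2 (TPM) for E2F4 and -0.106 (without replicate 3 at 0 µM; highest 0.461) for TFDP2, 0.057 for E2F6 (TPM) and 0.042 for RBL2 (leaving out replicate 3 at 6 µM; lowest -0.732). At 6 µM against 4 µM they were 0.019 (without replicate 1 at 6 µM; lowest -0.536) for E2F3, 0.091 (without replicate 3 at 4 µM), 0.033 and 0.226 (dropping replicate 1 or replicate 2 at 6 µM; lowest -0.383) for E2F7, and 0.08 (consensus exon value), 0.183 (core exon value) and 0.136 (without replicate 1 at 4 µM; lowest -0.201) for TFDP2. At 6 µM against 0 µM, E2F1, E2F2, E2F8, TFDP1, MYBL2 and FOXM1 were lower under all alternatives run. Read numbers are unknown, so the precision of low values such as those of E2F2 cannot be given beyond the deposited limits.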
